A study of Homo sapiens with 4 samples.

Results

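The data described here are the mRNA levels of 9 receptor tyrosine kinases, KIT, EGFR, ERBB2, ERBB3, MET, FGFR1, FGFR2, FGFR3 and FGFR4, and of the growth factor FGF18. These 10 genes, of 18417 genes measured, were chosen from these same arrays, because KIT was more than 2-fold lower with siEfp in Ishikawa cells and FGF18 more than 2-fold lower with siEfp in HEC-1A cells. The other 8 genes were added as receptors of the same families. All 10 genes had 1 probe set each, and no filter on low signals was applied to them.

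The study asked what Efp, the RING finger ubiquitin ligase encoded by TRIM25, does in endometrial cancer cells, and knocked it down with siRNA. There were 4 arrays, 1 for each of Ishikawa cells treated with siEfp, Ishikawa cells treated with siControl, HEC-1A cells treated with siEfp and HEC-1A cells treated with siControl, with no replicate of any condition. Ishikawa cells express ERα and derive from a well-differentiated endometrial adenocarcinoma, and HEC-1A cells are ERα-negative and derive from a moderately differentiated one. Each line comes from a single tumour and was grown alone in DMEM with serum, so that ligands made by the stroma of the endometrium were not sampled. In the study's methods the Ishikawa cells received the duplex siEfp #A, with RNA taken after 2 days. Neither the duplex nor the time is stated there for the HEC-1A cells.

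The values are RMA signals on the log2 scale, in which a step of 1 is a 2-fold change, and replication is limited by the number of arrays, 1 per condition. Array signals correlated at 0.991 between the pair of Ishikawa arrays, at 0.994 between the pair of HEC-1A arrays and at 0.931 to 0.935 across lines. TRIM25 was 2.75-fold lower with siEfp in Ishikawa cells and 2.97-fold lower with siEfp in HEC-1A cells, which is the direction that the labels give. A signal is called dim below when it lay at or below the 95th percentile of 360 olfactory receptor genes on the same array, which was 4.83, 4.89, 4.65 and 4.66 for Ishikawa siEfp, Ishikawa siControl, HEC-1A siEfp and HEC-1A siControl. EPCAM, an epithelial adhesion molecule, was not dim on any array (11.24 and 11.24 in Ishikawa cells, 7.05 and 7.26 in HEC-1A cells), whereas CDH1, which encodes E-cadherin, was dim in both HEC-1A arrays (9.62 and 10.22 in Ishikawa cells, 3.74 and 4.07 in HEC-1A cells). Estrogen receptor α mRNA (ESR1) had signals of 6.65 and 6.91 in the siEfp and siControl arrays of Ishikawa cells, against 4.77 and 4.45 in those of HEC-1A cells, of which the last was dim. Each signal is an average over a whole culture, so fewer expressing cells and less RNA per cell cannot be told apart.

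Receptor tyrosine kinases sit in the cell membrane, bind a growth factor outside the cell and then phosphorylate each other as pairs. The phosphorylated tails recruit adaptors that switch on the RAS-ERK and PI3K-AKT pathways, and ubiquitin ligases such as those of the CBL family mark the active receptors for degradation. In the endometrium, paracrine FGFs carry part of the signal of the ovarian steroids between stroma and epithelium, FGFR2 is a recurrent mutation target in endometrial cancer, and ERBB2 is amplified in a subset of these tumours.

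KIT and FGF18, which had the 2-fold differences with siEfp, and FGFR4, which had the largest difference between lines in absolute log2 among the 8 other members, are shown first by their promoters. The sequences are the RefSeq windows on GRCh38.p14, from 250 bases before the transcription start to 50 bases after it, written 5′ to 3′ on the strand of the gene. KIT lies at chr4:54657707-54658006, FGF18 at chr5:171419397-171419696 and the first of the FGFR4 starts at chr5:177086665-177086964, all on the plus strand. Capitals mark GC boxes, searched as GGGCGG on both strands and here not overlapping each other.
KIT: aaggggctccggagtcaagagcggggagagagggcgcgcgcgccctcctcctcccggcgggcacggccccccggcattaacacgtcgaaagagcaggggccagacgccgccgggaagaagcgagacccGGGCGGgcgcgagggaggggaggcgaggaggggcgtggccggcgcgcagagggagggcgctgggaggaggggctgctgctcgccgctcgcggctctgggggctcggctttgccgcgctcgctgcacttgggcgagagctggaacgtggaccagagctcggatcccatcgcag
FGF18: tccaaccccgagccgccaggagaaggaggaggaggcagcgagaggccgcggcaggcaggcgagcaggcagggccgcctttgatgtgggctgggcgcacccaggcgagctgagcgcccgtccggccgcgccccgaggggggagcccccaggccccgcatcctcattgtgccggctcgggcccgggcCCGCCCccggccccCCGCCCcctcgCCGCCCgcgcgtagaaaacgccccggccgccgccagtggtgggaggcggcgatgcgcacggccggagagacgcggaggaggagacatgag
FGFR4: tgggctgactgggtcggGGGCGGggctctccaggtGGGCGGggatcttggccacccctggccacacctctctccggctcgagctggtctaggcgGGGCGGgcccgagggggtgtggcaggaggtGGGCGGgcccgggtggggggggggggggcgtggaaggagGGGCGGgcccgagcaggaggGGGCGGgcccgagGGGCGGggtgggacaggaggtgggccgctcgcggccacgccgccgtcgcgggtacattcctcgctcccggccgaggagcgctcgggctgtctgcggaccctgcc

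The GC share of the 300 bases was 74.3% for KIT, 77.7% for FGF18 and 78.7% for FGFR4, against a median of 58.7% over all 35116 RefSeq promoter windows of the same length. KIT had 1 GC box, FGF18 had 3 and FGFR4 had 7, and 45.0% of all windows had at least 1. None of the 3 windows held TATAAA, which was present in 11.5% of all windows when both strands were searched. An NF-κB motif was matched 1 time each in the FGF18 and FGFR4 windows and not in the KIT window, and 5.91% of all windows had a match on either strand. These are matches of letters and describe the sequence only. Of the 10 genes, 8 were matched to the promoter table by symbol, with 14 windows in all.

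KIT is the receptor for stem cell factor. It had a log2 signal of 4.53 in siEfp-treated Ishikawa cells and 6.57 in siControl-treated Ishikawa cells, and of 3.06 in siEfp-treated HEC-1A cells and 3.60 in siControl-treated HEC-1A cells. Only the signal of siControl-treated Ishikawa cells lay above the dim range. The difference in Ishikawa cells was -2.05, or 4.13-fold lower with siEfp, and only 1 of 18417 genes was further down. With the dim array set at its olfactory percentile, KIT was at least 3.33-fold lower. In HEC-1A cells the difference was -0.54 between a pair of dim signals, for which no fold is given. With 1 array per condition these are descriptions without a test, and they are the values by which KIT was chosen.

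The epidermal growth factor receptor family is represented by EGFR, ERBB2 and ERBB3. EGFR, the receptor for EGF, TGF-α and amphiregulin, had nearly the same signals in both lines, 7.98 with siEfp and 8.32 with siControl in Ishikawa cells and 7.98 with siEfp and 8.31 with siControl in HEC-1A cells. Its siEfp difference was -0.33 in each line. ERBB2, which has no known ligand of its own and acts as a partner of the other family members, had 8.01 with siEfp and 7.66 with siControl in Ishikawa cells, and 7.58 with siEfp and 7.72 with siControl in HEC-1A cells. It was thus 1.27-fold higher with siEfp in Ishikawa cells, with a difference of 0.35, and lower in HEC-1A cells, with a difference of -0.14. ERBB3, a neuregulin receptor with a weak kinase that works through its partners, had 6.69 with siEfp and 7.14 with siControl in Ishikawa cells, and 4.42 with siEfp and 4.80 with siControl in HEC-1A cells. Its differences were -0.45 in Ishikawa cells and -0.39 in HEC-1A cells, where the siEfp signal was dim.

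MET, the receptor for hepatocyte growth factor, had signals of 9.17 with siEfp and 8.66 with siControl in Ishikawa cells, and of 9.41 with siEfp and 9.56 with siControl in HEC-1A cells. It was 1.43-fold higher with siEfp in Ishikawa cells, a difference of 0.51, and its difference in HEC-1A cells was -0.15. After KIT, this was the member with the largest siEfp difference in Ishikawa cells in absolute log2. The middle 95% of all genes ran from -0.70 to 0.51 in Ishikawa cells and from -0.55 to 0.49 in HEC-1A cells, and MET lay just inside the upper limit for Ishikawa cells.

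The FGF receptors share 1 plan, an extracellular part of immunoglobulin-like domains and a split kinase domain, and FGFR1, FGFR2 and FGFR3 are each made as splice forms with different ligand preferences. A single probe set per gene does not separate these forms. FGFR1 had 7.34 with siEfp and 7.48 with siControl in Ishikawa cells, and 7.40 with siEfp and 7.53 with siControl in HEC-1A cells, so that the lines overlapped. FGFR2 had 7.24 with siEfp and 7.45 with siControl in Ishikawa cells, against 6.17 with siEfp and 6.34 with siControl in HEC-1A cells. FGFR3 had 7.50 with siEfp and 7.41 with siControl in Ishikawa cells, against 6.66 with siEfp and 6.46 with siControl in HEC-1A cells. Both were higher in Ishikawa cells on every array. FGFR4, known in the liver as the receptor for FGF19 together with β-Klotho, ran the other way, with 5.46 with siEfp and 5.61 with siControl in Ishikawa cells, against 7.93 with siEfp and 7.94 with siControl in HEC-1A cells. The siEfp differences of the 4 FGF receptors stayed between -0.22 and 0.19 in both lines.

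FGF18 is a secreted FGF that signals through FGFR3 and other FGF receptors and is known for its part in bone and cartilage growth. Its signal was 10.42 with siEfp and 10.56 with siControl in Ishikawa cells, and 8.34 with siEfp and 9.89 with siControl in HEC-1A cells, so it was far above the dim range on all 4 arrays. The siEfp difference was -0.14 in Ishikawa cells and -1.54 in HEC-1A cells, or 2.91-fold lower, and 7 of 18417 genes were further down in HEC-1A cells. The siEfp array of HEC-1A cells was the lowest of the 4. Here too, the values are those by which the gene was chosen and have no test.

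**Figure D1:**
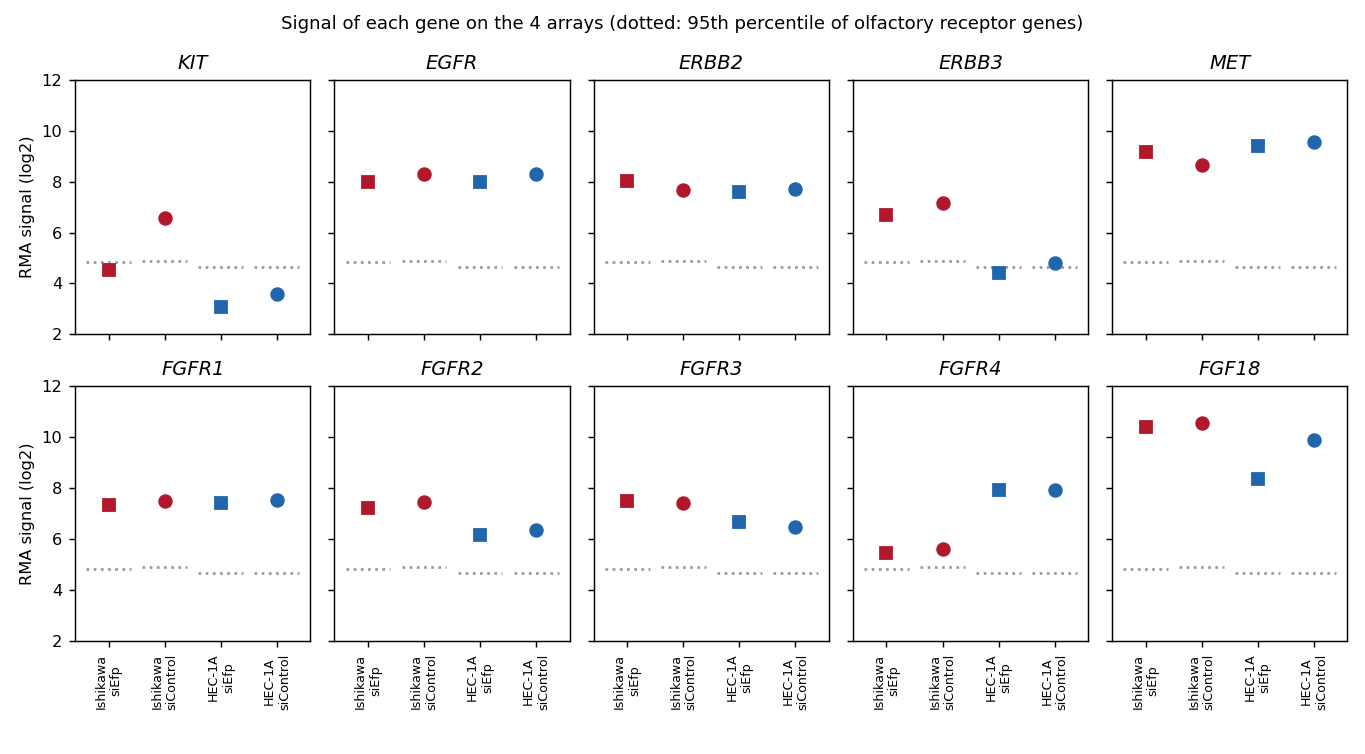
Log2 RMA signal (y axis) of each of the 10 genes on the 4 arrays, with siEfp left of siControl within Ishikawa and within HEC-1A. The points show KIT high only in siControl-treated Ishikawa cells (6.57), FGF18 lowest in siEfp-treated HEC-1A cells (8.34), ERBB3 higher in Ishikawa cells and FGFR4 higher in HEC-1A cells.

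Counted over the set, 7 of the 10 genes were lower with siEfp in Ishikawa cells and 9 in HEC-1A cells, and 7 were lower in both lines, whereas 26.7% of all genes were lower in both. The median difference of the 10 genes was -0.15 in Ishikawa cells and -0.16 in HEC-1A cells, against 0.01 over all genes in each line. In Ishikawa cells 1 of the 10 genes, KIT, was at least 2-fold lower, where 0.804% of all genes were, and 0 were at least 2-fold higher, where 0.136% of all genes were. In HEC-1A cells 1 of the 10 genes, FGF18, was at least 2-fold lower, where 0.271% of all genes were, and 0 were at least 2-fold higher, where 0.103% of all genes were. Since this contrast chose the genes, nothing is read from these counts. The member nearest to the 2-fold mark without reaching it was MET in Ishikawa cells (0.51) and KIT in HEC-1A cells (-0.54, between dim signals).

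**Figure D2:**
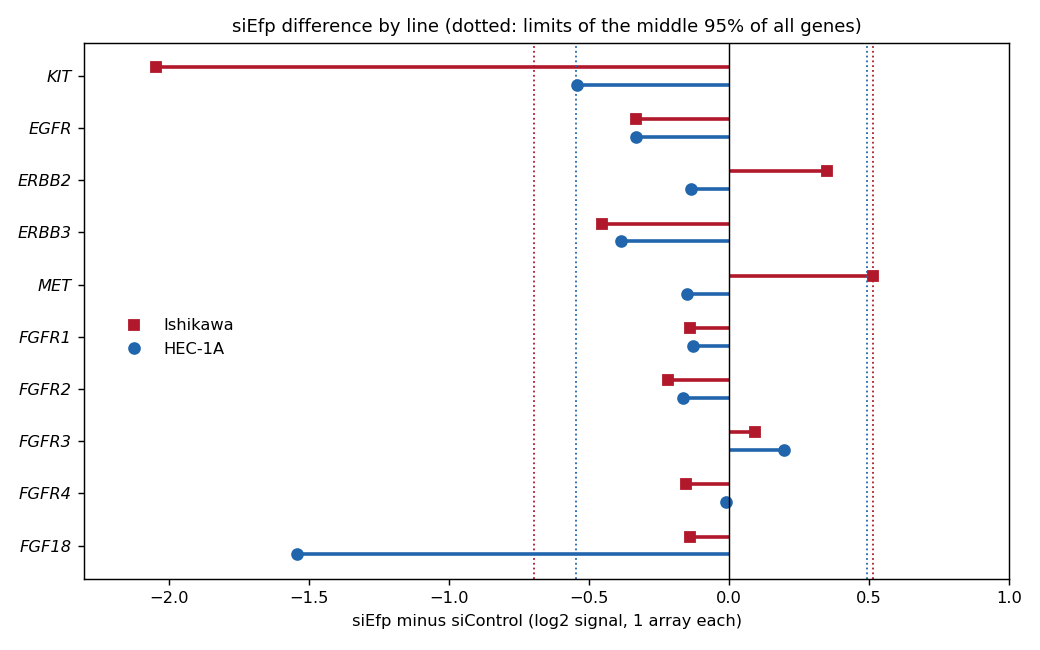
Difference between the siEfp and the siControl array (x axis, log2 signal) of the 10 genes in Ishikawa cells (squares) and HEC-1A cells (circles), with dotted lines at the limits of the middle 95% of all genes. KIT in Ishikawa cells (-2.05) and FGF18 in HEC-1A cells (-1.54) lie outside the limits of their line, the HEC-1A point of KIT is from dim signals, and ERBB2 and MET lie on opposite sides of 0 in the lines.

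The level of each gene was then compared between the lines, Ishikawa minus HEC-1A, with limma fitted over all 18417 genes and siEfp treatment as an additive term. The 2 arrays of a line differ in treatment and are not replicate cultures, the fit has 1 residual degree of freedom, and line, culture and array cannot be told apart. The spread in the fit is the departure from additivity of line and treatment, pooled in part over all genes. Its SE, intervals and p-values therefore do not measure the spread between cultures of a line. At an adjusted p under 0.05 (Benjamini-Hochberg), 6486 genes, or 35.2% of all, differed between the lines, 3124 higher and 3362 lower in Ishikawa cells, and the number was 2627 to 3923 when 1 array was left out and line alone was fitted. Of the 8 receptors that had not set the choice, 5 passed, with ERBB3, FGFR2 and FGFR3 higher in Ishikawa cells and MET and FGFR4 lower. That is 62.5%, against 35.2% of all genes. All genes include 4477 that were dim on all 4 arrays, whereas none of the 8 was. Among the 9209 genes at or above the median signal, fitted on their own, 57.7% passed. In that fit 4 of the 7 receptors in this range passed (57.1%), so their share was near that of genes of like signal. KIT and FGF18 were left without a test, because a gene chosen for a fall in 1 line must have signal there.

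FGFR4 and ERBB3 had the largest line differences of the 8 in absolute log2, in opposite directions. ERBB3 was higher in Ishikawa cells by 2.31 ± 0.12 on the log2 scale (SE, 2 arrays per line, adjusted p = 3.19e-05), or 4.95-fold. Of the 2 HEC-1A arrays 1 was dim, and with it at its olfactory percentile ERBB3 was at least 4.56-fold higher. FGFR4 differed by -2.40 ± 0.12 (adjusted p = 2.99e-05) and was 5.27-fold lower in Ishikawa cells. FGFR2 was 2.13-fold higher in Ishikawa cells (1.09 ± 0.12, adjusted p = 0.000769), and FGFR3 was 1.86-fold higher (0.90 ± 0.12, adjusted p = 0.00182). The lines did not overlap for any of these 4 genes.

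MET was 1.48-fold lower in Ishikawa cells (-0.57 ± 0.18, adjusted p = 0.0472), which is close to the threshold. Its line difference was -0.24 between the siEfp arrays and -0.90 between the siControl arrays. The call was lost without the Ishikawa siControl array (adjusted p = 0.254), without the HEC-1A siEfp array (0.192), without the HEC-1A siControl array (0.301) and with line alone in the fit (0.0790).

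For EGFR, ERBB2 and FGFR1 the lines overlapped and no difference passed the test. The line difference was 0.00 for EGFR (95% interval -0.29 to 0.29, adjusted p = 0.995), 0.18 for ERBB2 (-0.18 to 0.55, adjusted p = 0.431) and -0.05 for FGFR1 (-0.34 to 0.24, adjusted p = 0.812). These intervals leave room for differences of either sign up to their limits.

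KIT and FGF18 are described between the lines without a test. KIT can be compared between the siControl arrays only, since both siEfp signals were dim. There it was at least 3.78-fold higher in Ishikawa cells, with the dim HEC-1A array set at its olfactory percentile. FGF18 was higher in Ishikawa cells in both treatments, by 2.07 between the siEfp arrays and by 0.67 between the siControl arrays. When 1 array was left out, its mean line difference ranged from 0.60 (without the HEC-1A siEfp array) to 2.14 (without the HEC-1A siControl array). Epithelial markers moved with the line as well. Of 10 such markers 7 passed the line test as higher in Ishikawa cells and 0 as lower. KRT18, PAX8 and PGR did not pass, and PGR was dim on all 4 arrays. The summed linear signal of the 10 was 13924 and 15923 in the Ishikawa arrays against 6862 and 8113 in the HEC-1A arrays. Such sums weigh the brightest genes most, among them KRT18, with 11.56 and 11.92 in Ishikawa cells against 11.73 and 11.77 in HEC-1A cells. VIM, which encodes vimentin, was lower in Ishikawa cells, with 6.95 and 7.04 against 11.47 and 11.71 in HEC-1A cells. Of 7 stromal markers, VIM among them, DCN, LUM and THY1 were dim on all 4 arrays and 4 were dim on none. COL1A1 of these was higher in Ishikawa cells (7.29 and 7.40, against 6.37 and 6.50 in HEC-1A cells), while COL1A2 and COL3A1 did not pass the line test. The summed linear signal of the stromal list was 410.0 and 424.7 in the Ishikawa arrays against 3046 and 3561 in the HEC-1A arrays. VIM makes up most of the HEC-1A sums, so they do not describe the list as a whole. The median line difference of the 7 stromal markers was 0.09. Of 6 immune and mast cell markers, CPA3, HDC, PTPRC and CD3E were dim on all 4 arrays. CD68 was lower in Ishikawa cells (5.58 and 5.98, against 7.26 and 6.97 in HEC-1A cells). LST1 had 5.33 and a dim 4.67 in Ishikawa cells against 5.09 and 5.28 in HEC-1A cells. LST1 did not pass the line test (adjusted p = 0.572). Of 5 endothelial markers 4 were dim on all 4 arrays. The other, VWF, passed the line test as higher in Ishikawa cells (adjusted p = 0.00363). It had 5.21 and 5.18 there, against a dim 4.17 and 4.49 in HEC-1A cells. The part of these marker differences in the receptor differences was not tested.

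**Figure D3:**
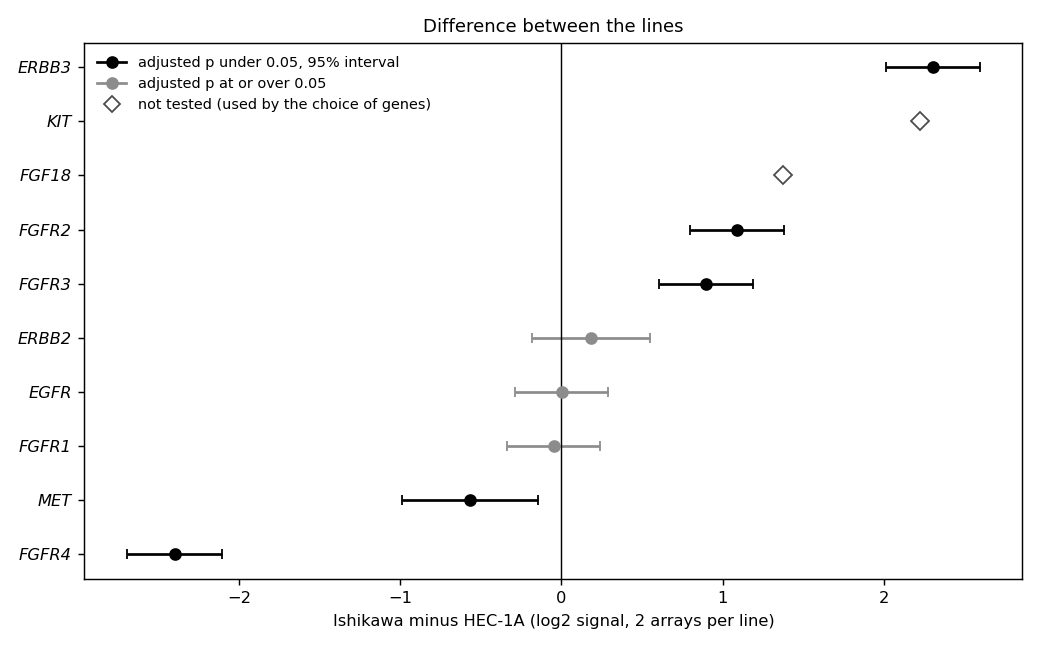
Line difference, Ishikawa minus HEC-1A (x axis, log2 signal), of the 10 genes, with bars for the 95% interval of the limma fit over 4 arrays where a test was made. ERBB3 (2.31), FGFR2 (1.09) and FGFR3 (0.90) lie right of 0, MET (-0.57) and FGFR4 (-2.40) lie left of it, and KIT and FGF18 are drawn without an interval, KIT with dim signals on 3 of its 4 arrays.

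The other receptor tyrosine kinases set the receptors above in context. Of 44 measured, 10 were higher and 7 lower in Ishikawa cells, which is 38.6% against 35.2% of all genes, and 18 were dim on all 4 arrays. The 10 higher ones include EPHA3 and EPHA6, which were dim on all 4 arrays, and ERBB4, which was dim on 3. None of the 44 reached a 2-fold difference with siEfp in either line. The 3 with the largest line difference in absolute log2 were all lower in Ishikawa cells. AXL, a receptor for GAS6, had 5.15 and 4.58 in Ishikawa cells against 10.07 and 10.34 in HEC-1A cells (adjusted p = 1.11e-05), with the second Ishikawa value dim. MERTK, of the same family, had 6.06 and 6.18 in Ishikawa cells against 8.89 and 8.88 in HEC-1A cells (adjusted p = 1.66e-05), and ROR1, a receptor for WNT5A, had 5.48 and 5.63 in Ishikawa cells against 8.08 and 8.51 in HEC-1A cells (adjusted p = 2.30e-05). In these and the following pairs the siEfp array comes before the siControl array. ERBB4, the remaining ERBB receptor, named here for its role, had 5.03 and 4.68 in Ishikawa cells against 4.60 and 4.24 in HEC-1A cells and was dim on 3 of the 4 arrays.

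Of 12 measured ligands of KIT, the ERBB receptors and MET, 7 passed the line test, 3 higher and 4 lower in Ishikawa cells. That is 58.3% of the list, against 35.2% of all genes in the same fit. Of the 12 ligands, 3 were dim on all 4 arrays and 6 on none, and no share of genes of like signal was taken in this fit. Of the 4 lower ones EPGN, which encodes epigen, was dim on all 4 arrays (3.18 and 3.15 in Ishikawa cells, 3.57 and 3.54 in HEC-1A cells). None of the 12 reached a 2-fold siEfp difference. EREG, which encodes epiregulin, a ligand of EGFR and ERBB4, had 4.91 and 4.66 in Ishikawa cells against 9.93 and 10.29 in HEC-1A cells (adjusted p = 6.86e-06), with the second Ishikawa value dim. NRG4, a neuregulin that binds ERBB4, ran the other way, with 9.45 and 9.47 in Ishikawa cells against 4.87 and 4.31 in HEC-1A cells, the second of them dim (adjusted p = 7.69e-06). HBEGF, a further EGFR ligand, had 5.79 and 5.89 in Ishikawa cells against 7.88 and 7.65 in HEC-1A cells (adjusted p = 0.00011). The EGFR ligands did not run in a single direction. TGFA and EGF, named after their values were seen, were higher in Ishikawa cells, TGFA with 6.65 and 6.69 against 5.44 and 5.41 in HEC-1A cells (adjusted p = 0.000434) and EGF by a log2 difference of 0.50 (adjusted p = 0.0224).

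The ligands of KIT and MET were named for their role. KITLG, which encodes stem cell factor, was dim in both Ishikawa arrays (4.28 and 4.04) and had 5.92 and 5.91 in HEC-1A cells, or at least 2.07-fold lower in Ishikawa cells (adjusted p = 0.000127). KIT itself was dim in both HEC-1A arrays. HGF was dim on all 4 arrays, between 3.41 and 3.52, in cells in which MET was not dim on any array.

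Of the 21 FGF genes other than FGF18, 3 passed the line test (14.3%, against 35.2% of all genes) and 8 were dim on all 4 arrays. FGF12, which encodes an FGF that stays inside the cell, had 7.36 and 7.16 in Ishikawa cells against 3.90 and 3.90 in HEC-1A cells, both dim, or at least 6.10-fold higher (adjusted p = 1.04e-05). FGF9, known in the endometrium as a stromal growth factor induced by estradiol, had 5.40 and 5.99 in Ishikawa cells against a dim 4.01 and 3.90 in HEC-1A cells, or at least 2.06-fold higher (adjusted p = 0.000604). FGF2 was lower in Ishikawa cells, with 6.21 and 6.73 against 6.98 and 7.50 in HEC-1A cells (adjusted p = 0.00321). None of the 21 genes reached a 2-fold siEfp difference in either line.

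**Figure D4:**
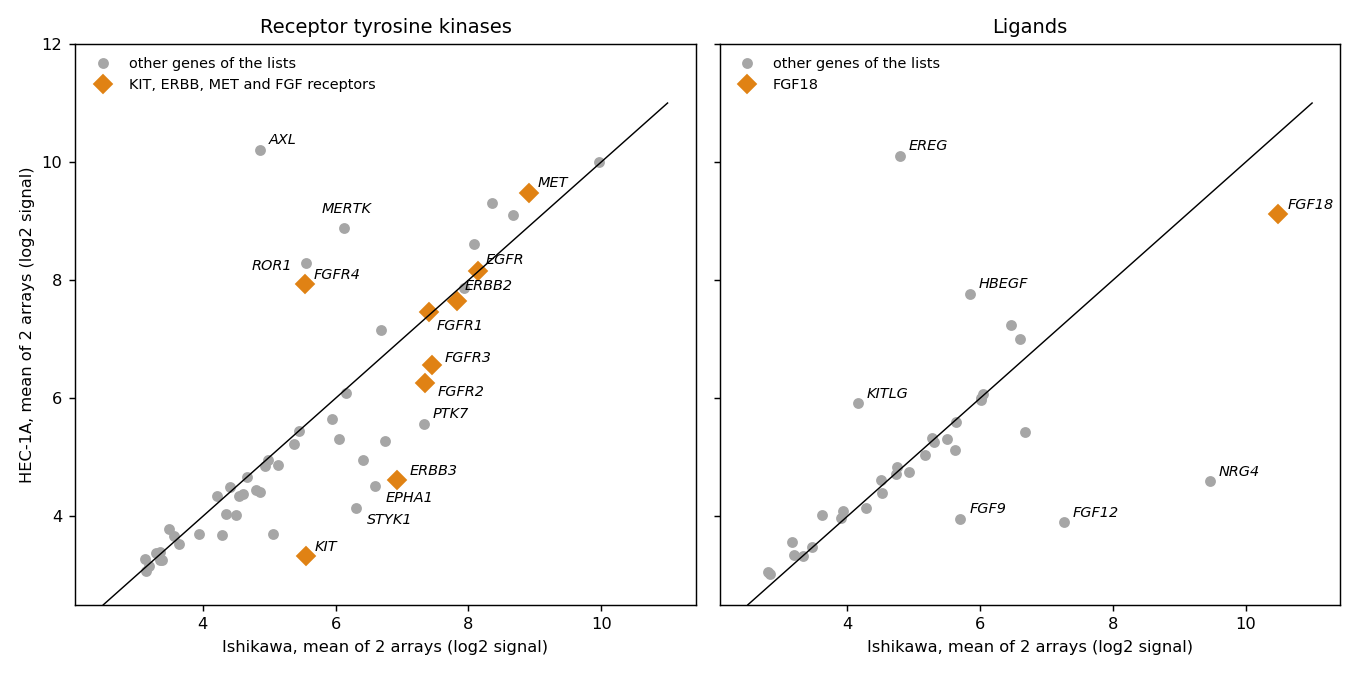
Mean log2 signal of the 2 arrays of HEC-1A (y axis) against that of Ishikawa (x axis) for receptor tyrosine kinases (left) and their ligands (right), with the line of equal signal and each gene to be read against itself only. FGFR4 lies above the line with AXL, MERTK and ROR1, ERBB3, KIT, FGFR2, FGFR3 and FGF18 lie below it, and EREG (above) and NRG4 (below) are the ligands farthest from it.

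Co-receptors and binding proteins of the FGFs included the only gene of all 7 lists around the 10 genes with a 2-fold siEfp difference. FGFBP1, a secreted carrier that releases FGFs from the matrix, had 5.44 with siEfp and 6.66 with siControl in Ishikawa cells and 4.81 with siEfp and 4.71 with siControl in HEC-1A cells. Its siEfp difference was -1.22 in Ishikawa cells and 0.09 in HEC-1A cells. Of the 11 measured genes of this list, 2 were higher and 2 lower in Ishikawa cells, which is 36.4% against 35.2% of all genes. FGFBP1 was among the higher ones (1.29 ± 0.28, adjusted p = 0.0130). Its line difference was 0.63 between the siEfp arrays and 1.94 between the siControl arrays, so it depended on its siEfp difference in Ishikawa cells. FLRT3, a membrane protein that binds FGF receptors, and FGFRL1, an FGF receptor without a kinase domain, were lower. FLRT3 had 5.75 and 6.21 in Ishikawa cells against 8.46 and 8.22 in HEC-1A cells (adjusted p = 0.000161), and FGFRL1 had 7.81 and 7.87 in Ishikawa cells against 8.73 and 8.73 in HEC-1A cells (adjusted p = 0.00182).

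Downstream of the receptors, 13 of 23 measured adaptors, RAS activators and ubiquitin ligases passed the line test, 5 higher and 8 lower in Ishikawa cells. That is 56.5%, against 35.2% of all genes in the same fit. The 57.7% of genes at or above the median signal came from the separate fit of those genes and is no like comparison. Of the 23 genes, 22 were dim on no array, against 12101 of all 18417 genes. CBLB, a ubiquitin ligase for active receptors, had 9.03 and 9.16 in Ishikawa cells against 7.55 and 7.47 in HEC-1A cells (adjusted p = 0.000191). SRC, a cytoplasmic tyrosine kinase, was lower in Ishikawa cells (6.71 and 6.66, against 7.97 and 8.15 in HEC-1A cells, adjusted p = 0.000363), and LRIG1, a membrane protein that lowers ERBB receptor levels, was higher (8.53 and 8.08, against 6.79 and 7.12 in HEC-1A cells, adjusted p = 0.00234). None of the 23 genes reached 2-fold with siEfp.

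Of 8 measured RAS-ERK kinase genes, 3 were higher and 1 was lower in Ishikawa cells, so 4 of 8 passed. The line difference was 0.80 for MAPK3, which encodes ERK1 (adjusted p = 0.00344), 0.58 for RPS6KA1, an ERK-activated kinase (adjusted p = 0.0101), and -0.54 for HRAS (adjusted p = 0.0188). Of 9 measured PI3K-AKT genes, 4 were higher and 1 was lower, or 55.6%. The shares of both lists stand against 35.2% of all genes in the same fit. The 57.7% of genes at or above the median signal came from the separate fit of those genes and is no like comparison. PIK3R3, a regulatory subunit of PI3K, had 9.86 and 10.17 in Ishikawa cells against 6.87 and 6.93 in HEC-1A cells (adjusted p = 1.35e-05). INPP4B, a phosphatase that removes a PI3K product, had 7.58 and 8.33 in Ishikawa cells against 6.38 and 6.46 in HEC-1A cells (adjusted p = 0.00089), and PIK3R1, the main regulatory subunit, was lower in Ishikawa cells by a log2 difference of -0.58 (adjusted p = 0.0155). No gene of these 2 lists reached 2-fold with siEfp in either line.

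The genes nearest to KIT in pattern were sought among 10240 genes by the Euclidean distance over the 4 log2 signals after each gene was centred on its own mean. They were EDN2 (distance 0.33), SLAIN1 (0.37), TNFRSF11B (0.58), DSEL (0.61) and MTARC1 (0.65). EDN2, which encodes the vasoconstrictor endothelin 2, had 7.13 with siEfp and 8.97 with siControl in Ishikawa cells, and 5.90 with siEfp and 6.07 with siControl in HEC-1A cells. Unlike KIT, it was above the dim range on all 4 arrays. TNFRSF11B was dim in both HEC-1A arrays (4.46 and 4.64), and MTARC1 in the siControl array of HEC-1A cells (4.54). The siEfp differences of the 5 genes in Ishikawa cells ran from -1.85 to -1.25. Their direction follows from the search, which used these same signals, and is no separate result.

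The genes nearest to FGF18 were REEP1 (0.46), PLK2 (0.48), AFAP1L2 (0.51), TMEM139 (0.55) and EML1 (0.59). REEP1 had 5.98 with siEfp and 6.43 with siControl in Ishikawa cells, and a dim 4.28 with siEfp and 5.26 with siControl in HEC-1A cells. PLK2, which encodes a polo-like kinase, had 9.44 with siEfp and 10.04 with siControl in Ishikawa cells, and 7.99 with siEfp and 9.09 with siControl in HEC-1A cells. All 5 genes were lower with siEfp in both lines, with differences from -1.10 to -0.72 in HEC-1A cells. These distances rest on 4 arrays. As for KIT, the falls in HEC-1A cells follow from the search and are no separate result.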

How the data were processed

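Total RNA of 4 cultures, 1 per condition, was labelled from 150 ng and hybridised to 1 array each. The deposited values are log2 signals of probe sets, for which the submitters' notes name RMA and Affymetrix Expression Console. The sources used here give neither a build nor tool versions. RMA is meant to bring all arrays to 1 distribution, and differences between dim probe sets come out smaller. The medians of probe sets with 1 gene symbol still differed, at 6.33 and 6.34 in Ishikawa arrays against 6.25 and 6.27 in HEC-1A arrays. The methods name the Human Exon 1.0 ST array, whereas the probe set numbers are those of Human Gene 1.0 ST.

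Of 33297 probe sets, 19460 had 1 gene symbol, 1754 several and 12083 none. Those with 1 symbol were averaged per gene, giving 18417 genes. Cross-hybridisation between related receptors was not tested. Samples were grouped by their titles. The siEfp differences have no test. Line differences were fitted with limma 3.58.1 in R 4.3.3 (lmFit, eBayes, Benjamini-Hochberg over all genes). The code was run on simulated data with known shifts. Their noise was drawn from the fitted spread without culture or array effects, so this run cannot test for such effects. Other steps used Python 3.11.15, numpy 2.4.6, pandas 2.3.3 and matplotlib 3.10.9.

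The members and lists were chosen with earlier results of these data known. Named genes are the 10 members, of each list every gene at least 2-fold different with siEfp and the 3 with the largest called line difference, the 5 nearest in pattern to KIT and to FGF18 among genes that reach the median signal of all genes, and TRIM25. KITLG, HGF, ERBB4, TGFA, EGF, EPGN and the markers were named in addition, for their role, after their values were seen. EPHA3 and EPHA6 were named because they passed the line test with dim signals. A fold against a side that was dim on all its arrays was taken against the higher of the olfactory percentile and the measured signal, as a lower bound. Alternatives were line alone, an intensity trend, an adjusted p under 0.01, genes at or above the median signal, a second quantile normalization, centring, the brightest probe set, a 1.5-fold threshold and leaving out each array.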

Additional observations from a re-analysis of the deposited data

Results flagged for a closer look

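ERBB2 and MET had siEfp differences of opposite sign in the lines. The difference of ERBB2 was 0.35 in Ishikawa cells and -0.14 in HEC-1A cells, and that of MET was 0.51 in Ishikawa cells and -0.15 in HEC-1A cells. Each value compares 1 array with 1 array, and the difference between the lines was not tested.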

How the results depend on the processing

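The called line differences kept their direction under the alternatives run. Those of EGFR, ERBB2 and FGFR1, which were not called, changed sign under at least 1 of them, as for ERBB2 between the siControl arrays alone (-0.06). The number of genes that differed between the lines, 6486 at an adjusted p under 0.05, was 4123 at an adjusted p under 0.01 and 2627 to 3923 when each array was left out in turn, with fewer samples and no treatment term. Of the 8 receptors tested, 4 or 5 passed under the alternatives, and MET was the one lost except with genes at or above the median signal only, where ERBB3 was not among the genes and MET passed (adjusted p = 0.00765). MET had an adjusted p of 0.0790 with line alone and 0.0710 after a second quantile normalization. With genes at or above the median signal only, KIT and ERBB3 are not among the genes, so 0 members had a 2-fold difference in Ishikawa cells, and the genes at least 2-fold higher with siEfp numbered 15 in Ishikawa cells and 10 in HEC-1A cells. At a 1.5-fold threshold, 686 genes were lower and 274 higher with siEfp in Ishikawa cells, and 375 were lower and 246 higher in HEC-1A cells. Precision is limited by the 4 arrays, and dim signals such as KIT in HEC-1A cells give bounds only.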
